A study of Homo sapiens with 3 samples.

Results

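The genes described here are the protein-coding genes whose symbol is ZNF followed by a number and at most 1 letter, on the human autosomes other than chromosome 19. They were taken by name from the RefSeq table of GRCh38.p14, which gave 251 genes out of 20037 protein-coding ones in all (24 chromosomes). The remaining 17424 protein-coding genes of the same 21 autosomes served as comparison. The rule that picks the genes uses names and positions and no measured value. For every gene, the SP1 and the H3K27ac peak summits within 1000 bases of either end of the gene span were collected, and the highest score was kept.

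H1299 is a cultured human lung cancer line, labelled lung adenocarcinoma in the series. The 3 libraries were made by CUT&RUN, which cuts and sequences the DNA around the target of an antibody. The labels tell them apart by antibody: 1 against the transcription factor SP1, 1 against H3K27ac, the acetylated histone mark of active promoters and enhancers, and 1 control IgG, which was not analysed here. The labels name no treatment, no clone and no number of cultures. The files hold called summits with scores, so the sequencing depth is unknown, and with 1 library per antibody no p-value was possible. Of 9 lung epithelial marker genes, NAPSA alone had an SP1 summit at an end and none had one of H3K27ac, and none of 3 blood, 2 liver and 2 neuron markers had either. Among all protein-coding genes of the autosomes and X, SP1 was at 13.8% and H3K27ac at 0.851%. Summits do not measure RNA, so these counts leave the labelled cell type unchecked.

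Zinc-finger proteins of the ZNF series hold a zinc ion in each of a row of short finger-like folds, and the fingers read DNA. Many carry a KRAB domain, which recruits the corepressor TRIM28 and through it histone and DNA methylation, and a large share of such genes lies in clusters that arose by local duplication. The name is broader than that class, since ZNF598 is a ubiquitin ligase of collided ribosomes and ZNF207 is a spindle protein. SP1 is a zinc-finger protein too, and it binds the GC box, a short GC-rich element common in promoters without a TATA box.

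Of the 251 genes, 205 had a promoter window in the RefSeq table (GRCh38.p14), which runs from 250 bases before to 50 bases after a listed start. The window of the listed start nearest to the gene's start was used. Capitals mark GC boxes (GGGCGG on either strand) and the letters CCGGAAG on either strand, the core that ETS transcription factors recognise. The first 3 windows are those of the highest SP1 scores among genes whose best summit fell inside the window, and ZNF300 is the highest of these with no GC box. ZNF789 is the one ZNF gene of chromosome 7 with an SP1 summit at an end, and ZNF853 has the most GC boxes among those of chromosome 7 without one. The windows lie at chr5:43121211-43121510 (ZNF131, plus strand), chr9:127424132-127424431 (ZNF79, plus), chr16:30407356-30407655 (ZNF771, plus), chr5:150904931-150905230 (ZNF300, minus), chr7:99472640-99472939 (ZNF789, plus) and chr7:6615360-6615659 (ZNF853, plus).
ZNF131: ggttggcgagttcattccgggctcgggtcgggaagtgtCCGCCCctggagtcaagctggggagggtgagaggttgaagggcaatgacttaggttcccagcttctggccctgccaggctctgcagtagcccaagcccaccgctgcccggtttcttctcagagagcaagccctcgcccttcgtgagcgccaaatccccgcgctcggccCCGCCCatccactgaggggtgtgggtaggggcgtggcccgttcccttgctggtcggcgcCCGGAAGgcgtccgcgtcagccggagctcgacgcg
ZNF79: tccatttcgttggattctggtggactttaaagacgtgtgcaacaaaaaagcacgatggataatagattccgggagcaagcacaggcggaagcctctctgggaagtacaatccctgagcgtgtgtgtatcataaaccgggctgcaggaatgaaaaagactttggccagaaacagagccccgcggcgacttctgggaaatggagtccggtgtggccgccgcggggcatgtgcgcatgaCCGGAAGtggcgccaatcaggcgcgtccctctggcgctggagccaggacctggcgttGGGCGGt
ZNF771: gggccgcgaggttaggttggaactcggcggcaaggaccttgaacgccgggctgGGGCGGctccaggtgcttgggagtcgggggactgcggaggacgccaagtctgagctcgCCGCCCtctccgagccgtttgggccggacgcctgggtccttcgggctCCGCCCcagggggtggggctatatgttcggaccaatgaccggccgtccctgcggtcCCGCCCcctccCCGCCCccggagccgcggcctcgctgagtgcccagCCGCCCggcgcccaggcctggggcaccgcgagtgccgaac
ZNF300: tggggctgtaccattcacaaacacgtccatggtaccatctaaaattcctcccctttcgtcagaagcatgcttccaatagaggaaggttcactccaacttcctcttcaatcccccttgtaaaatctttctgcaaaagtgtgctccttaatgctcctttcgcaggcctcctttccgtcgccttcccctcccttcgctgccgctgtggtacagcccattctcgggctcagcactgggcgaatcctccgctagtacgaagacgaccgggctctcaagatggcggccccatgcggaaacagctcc
ZNF789: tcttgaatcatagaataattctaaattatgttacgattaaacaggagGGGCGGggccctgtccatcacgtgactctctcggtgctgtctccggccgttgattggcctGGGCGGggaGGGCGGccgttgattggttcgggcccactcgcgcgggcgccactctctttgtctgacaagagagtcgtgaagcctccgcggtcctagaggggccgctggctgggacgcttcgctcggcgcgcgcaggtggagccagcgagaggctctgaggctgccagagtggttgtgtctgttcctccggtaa
ZNF853: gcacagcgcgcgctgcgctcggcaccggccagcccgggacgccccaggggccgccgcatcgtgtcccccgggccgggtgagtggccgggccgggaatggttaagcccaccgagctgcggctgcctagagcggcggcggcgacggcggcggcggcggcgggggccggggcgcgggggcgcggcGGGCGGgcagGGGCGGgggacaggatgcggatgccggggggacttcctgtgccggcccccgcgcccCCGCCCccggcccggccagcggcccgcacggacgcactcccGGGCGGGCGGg

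The windows were chosen by score and box number, so they illustrate single genes and do not show how boxes and summits go together. ZNF131 had 2 GC boxes and a score of 22.1, with the summit at base 102 of its window. ZNF79 had 1 box, at the far end of its window, and a summit of 13.2 at base 116. ZNF771 had 6 boxes and a summit of 13.1 at base 65. ZNF300 had no box and a summit of 10.4 at base 128, while ZNF853 had 5 boxes, counting overlapping matches, and no SP1 summit within 131206 bases of either end. The summit of ZNF789, with a score of 19.8, lay 348 bases before its start and so just outside the window, which holds 3 boxes.

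The first comparison asked how often SP1 was called at the ends of ZNF genes. An SP1 summit was found at 45 of the 251 genes, or 17.9% (95% Wilson interval 13.7 to 23.1), against a background of 12.7% among the other protein-coding genes of the same chromosomes (2207 of 17424, interval 12.2 to 13.2). The difference was 5.26 percentage points (Newcombe interval 0.981 to 10.5). It was smaller without chromosome 16: 31 of the remaining 221 ZNF genes had a summit, or 14.03%, against 12.5% of other genes, a difference of 1.52 points (-2.48 to 6.73). Without chromosome 7 it was 7.68 points (2.82 to 13.6), and without both it was 3.60 points (-1.02 to 9.58), with 30 of 186 ZNF genes. With only the summits above the median score of their list it was 1.74 points (-1.61 to 6.26). Weighting the other genes to the chromosomes of the ZNF genes gave 12.8%, or 32.2 genes where 45 were found. These intervals cover counting error only and treat genes as independent, which neighbouring genes are not.

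Pooled over chromosomes, the genes around the ZNF genes carried SP1 about as often as they did. Of 657 other protein-coding genes whose span lay within 100000 bases of a ZNF gene, 124 had an SP1 summit at an end, or 18.9% (16.1 to 22.0), against 12.4% (11.9 to 12.9) of the 16767 genes farther away. Set against these neighbours, the ZNF genes differed by -0.945 points (-6.25 to 4.98). This comparison was added after the values were seen. Pooled over chromosomes, the ZNF genes thus stood above the whole chromosome set and not above the genes around them, within counting error. The genes around them were not matched to the ZNF genes for another gene's end within 1000 bases. The shares on single chromosomes were 46.7% against 29.7% of such neighbours on chromosome 16 and 2.86% against 19.6% on chromosome 7. On each of these chromosomes the intervals of ZNF genes and neighbours overlap, and the chromosomes were picked after their values were seen. Of the 45 best ZNF summits, 14 were also within 1000 bases of another gene's end, so some summits count on both sides.

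**Figure D1:**
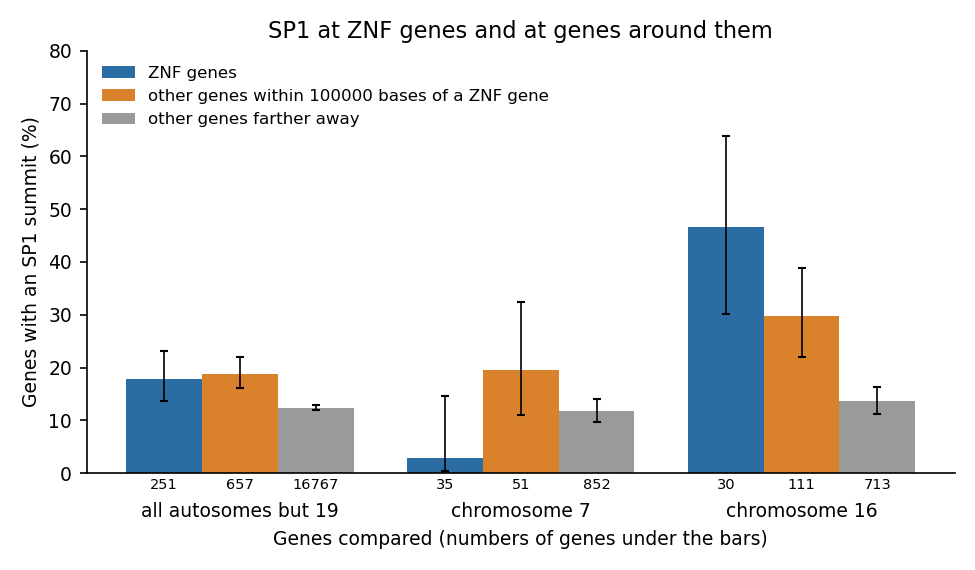
Share of genes with an SP1 summit within 1000 bases of a gene end (y axis, percent), for ZNF genes, other protein-coding genes within 100000 bases of one and other genes farther away, over all autosomes but 19 and on chromosomes 7 and 16 alone; bars are shares, lines are 95% Wilson intervals and the numbers of genes stand under the bars. Over all chromosomes the ZNF genes (17.9%) and their neighbours (18.9%) are level. On chromosome 7 the share of ZNF genes (2.86%) is lower than that of their neighbours (19.6%), with overlapping intervals.

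Chromosomes 7 and 16 held the most ZNF genes and differed widely in their share with SP1. On chromosome 16, 14 of 30 had an SP1 summit, or 46.7% (30.2 to 63.9), against 15.8% (13.4 to 18.4) of 824 other genes there and 29.7% (22.0 to 38.8) of the 111 other genes close to a ZNF gene. On chromosome 7, 1 of 35 had one, or 2.86% (0.506 to 14.5), against 12.2% (10.2 to 14.5) of 903 other genes and 19.6% (11.0 to 32.5) of the 51 close by. The chromosomes were singled out after their values were seen. There were 217 SP1 summits on chromosome 16 and 246 on chromosome 7, counts that take no account of chromosome length. The median distance from a ZNF gene end to the nearest SP1 summit was 1216 bases on chromosome 16 and 159039 bases on chromosome 7.

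GC boxes were at similar frequency in both sets of promoters. At least 1 GC box was present in 18 of 28 windows of chromosome 16 ZNF genes (64.3%, 45.8 to 79.3) and in 17 of 31 of chromosome 7 (54.8%, 37.8 to 70.8). The median GC content was 65.8% and 62.3%. Another gene's end within 1000 bases was found at 8 ZNF genes of chromosome 16 (26.7%) and at 5 of chromosome 7 (14.3%). The part of these features in the difference was not tested.

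**Figure D2:**
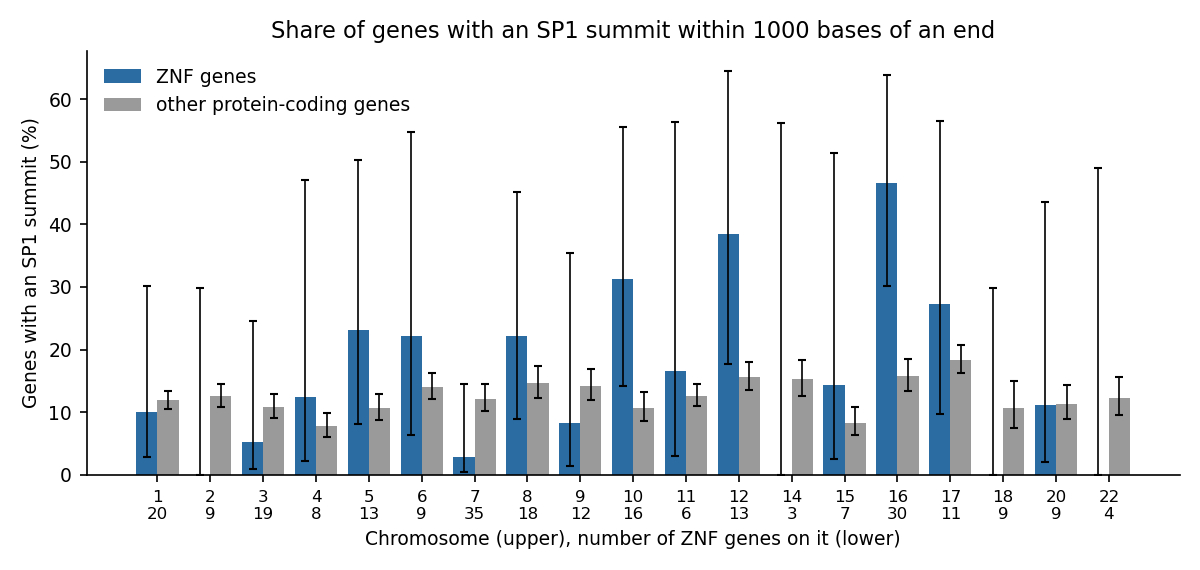
Share of genes with an SP1 summit within 1000 bases of an end (y axis, percent) for ZNF genes and other protein-coding genes on each autosome that holds a ZNF gene; bars are shares, lines are 95% Wilson intervals, and the number of ZNF genes stands below the chromosome. Chromosome 16 (14 of 30 ZNF genes) is high. Chromosome 7 (1 of 35) is low, but its interval (0.506 to 14.5) overlaps that of its other genes (10.2 to 14.5). Most of the remaining chromosomes hold too few ZNF genes to be told from the other genes.

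On chromosome 16, 9 of the 14 genes with a summit lay in the 2 stretches described next, and 5 stood alone. In the first, from 3112586 to 3443504, 7 ZNF genes lie in a row and 5 of them had an SP1 summit. ZNF263, a KRAB and SCAN domain factor, reached 17.4 at 302 bases before its start. ZNF200 had 6.51, ZNF213 and ZNF75A 5.89 each and ZNF174, a SCAN domain gene, 5.62. Thus 1 gene of the row was high and the other 4 lay close together below the median of other genes, 8.31. ZNF205 and ZNF597 had no summit within 3995 and 4951 bases. Of 5 other protein-coding genes in the stretch, TIGD7 and ZSCAN32 had a summit, and each shares it with its ZNF neighbour, ZNF75A and ZNF174.

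A second group lies between 30378312 and 31084196 on the same chromosome. ZNF48 had 18.7, ZNF764 14.1 and ZNF771 13.1, all above the upper quartile of other genes (11.9). ZNF668 had 7.14, and its summit lay 265 bases inside the gene and 447 bases from the listed start of its neighbour ZNF646. ZNF768, ZNF747, ZNF688, ZNF785, ZNF689, ZNF629 and ZNF646 of the same stretch had none at an end. The remaining 5 summits of the chromosome were at genes that stand alone: ZNF500 (7.30), ZNF598 (6.69), ZNF821 (5.004), ZNF276 (4.65) and ZNF319 (4.53), all under the median of other genes.

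The other rows of 7 ZNF genes differed from each other. On chromosome 12, between 132918306 and 133214832, 3 of ZNF605, ZNF26, ZNF84, ZNF140, ZNF891, ZNF10 and ZNF268 had an SP1 summit. ZNF140, a KRAB repressor gene, had 7.37. ZNF10, the source of the KRAB domain widely used in CRISPR interference, and its divergent neighbour ZNF891 shared 1 summit of 3.70 at 133130781, the lowest score of the 45 genes. On chromosome 3, between 44431705 and 44737083, none of ZNF445, ZNF852, ZNF660, ZNF197, ZNF35, ZNF502 and ZNF501 had one. No other gene lies in the chromosome 12 row, and the 3 others in the chromosome 3 row had no summit either. On chromosome 7 the row of ZNF786, ZNF425, ZNF398, ZNF282, ZNF212 and ZNF783 had none, with the nearest SP1 summit 159039 bases or more from each end.

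The share with SP1 followed no steady order with the length of a row. Rows were defined as ZNF genes with at most 100000 bases between them. Of 139 ZNF genes outside any row, 24 had a summit, or 17.3% (11.9 to 24.4). The share was 11.8% (6.08 to 21.5) of 68 genes in rows of 2 to 4 and 29.5% (18.2 to 44.2) of 44 genes in rows of 5 or more, and these 3 intervals overlap. The 7 genes of the first chromosome 16 stretch gave 5 of the 13 summits in the longest rows.

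Where SP1 was called, the scores of ZNF genes overlapped widely with those of other genes. The 45 genes had a median best score of 7.46 (exact binomial interval of the median 5.89 to 9.08), quartiles of 5.62 and 10.4 and a range from 3.70 to 22.1. The 2207 other genes with a summit had a median of 8.31 (8.07 to 8.55), quartiles of 6.13 and 11.9 and a highest score of 49.7. A score above 10 was reached by 12 of the 45 (26.7%, 15.96 to 41.0) and by 35.3% of the other genes (33.3 to 37.3). Against the genes within 100000 bases, whose median was 9.18, the difference of medians was -1.72 (-3.29 to -0.0977), and against all other genes it was -0.846 (-2.42 to 0.778). Both intervals carry the error of the ZNF median alone and treat the other median as fixed, so they are too narrow. The score is the −log10 p or q of the peak call, and such a value grows with depth as well as with enrichment.

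**Figure D3:**
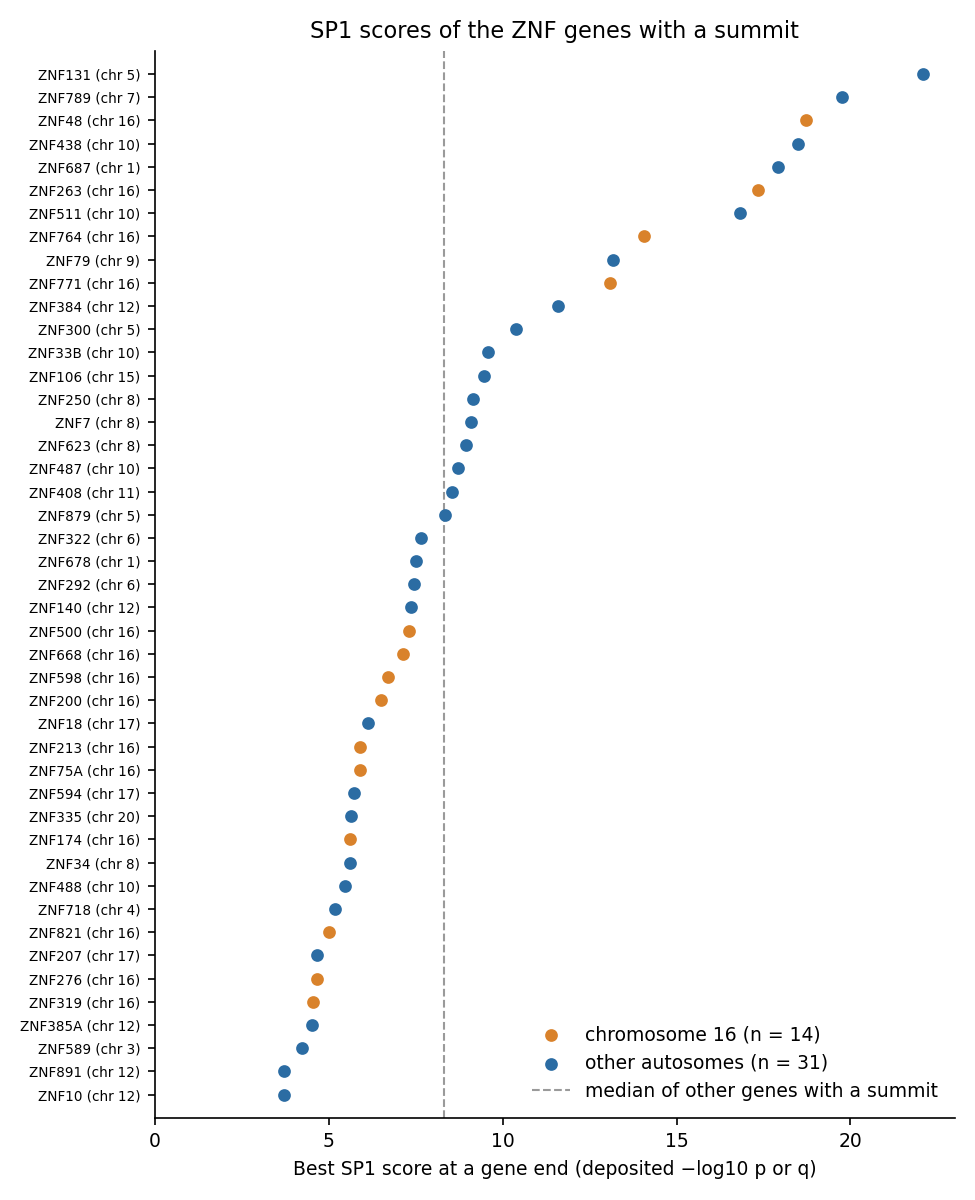
Best SP1 score at a gene end (x axis, deposited −log10 p or q) for each of the 45 ZNF genes with a summit, ordered by score, with the 14 genes of chromosome 16 in orange and the median of other genes with a summit (8.31) as a dashed line. Scores run from 3.70 to 22.1, and chromosome 16 genes are found both near the top and near the bottom.

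The highest scores belonged to genes from several chromosomes. ZNF131, a BTB domain zinc-finger gene on chromosome 5, led with 22.1. ZNF789 on chromosome 7 had 19.8, ZNF48 on chromosome 16 had 18.7 and ZNF438 on chromosome 10 had 18.5. ZNF687 on chromosome 1, whose mutation is known from Paget disease of bone, had 17.9. After ZNF263 came ZNF511 on chromosome 10 with 16.8, at a summit it shares with the readthrough gene ZNF511-PRAP1. ZNF764 (14.1), ZNF79 on chromosome 9 (13.2), ZNF771 (13.1), ZNF384 on chromosome 12 (11.6), a fusion partner in acute B-cell leukaemia, and ZNF300 on chromosome 5 (10.4) completed the 12 above 10.

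Below these came a close series. ZNF33B on chromosome 10 had 9.57, ZNF106 on chromosome 15 9.45 and ZNF408 on chromosome 11, known from inherited retinal disease, 8.55. ZNF250, ZNF7 and ZNF623 of chromosome 8 had 9.15, 9.08 and 8.94. ZNF487 on chromosome 10 had 8.71 and ZNF879 on chromosome 5 had 8.33, and with these 20 genes all scores above the median of other genes are named. At the low end ZNF589 on chromosome 3 had 4.24, just above the shared summit of ZNF10 and ZNF891.

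Nearly all of these summits marked gene starts. Strand was known for 39 of the 45 genes, and in 38 the best summit was nearer the start (97.4%, 86.8 to 99.5), against 95.2% (94.1 to 96.1) of 1819 other genes. The exception was ZNF718 on chromosome 4, with 5.16 at 554 bases from its 3′ end. The median distance to the end was 265 bases (quartiles 135 and 351), close to the 274 bases of other genes. Of the 38, 18 summits lay before the start and 20 inside the gene, or 52.6% inside (37.3 to 67.5), against 43.7% (41.4 to 46.1) in other genes. The members nearest to the limit of 1000 bases were ZNF276 (768 bases), ZNF250 (846) and ZNF18 (856) inside it and ZNF436 (1138), ZNF778 (1144) and ZNF514 (1244) outside. Few genes thus lay near the limit.

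**Figure D4:**
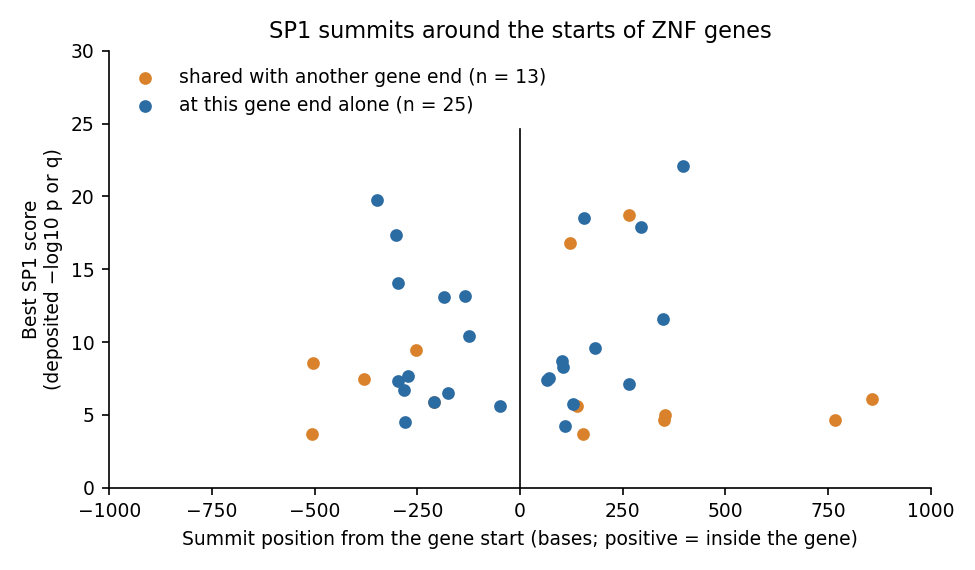
Position of the best SP1 summit from the gene start (x axis, bases, positive inside the gene) against its score (y axis, deposited −log10 p or q) for the 38 ZNF genes whose summit lay at the start; orange points are summits also within 1000 bases of another protein-coding gene's end (13) and blue points the other 25. Summits lie on both sides of the start, 18 before it and 20 inside, and few are beyond 500 bases; ZNF213 and ZNF75A almost coincide.

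ZNF genes close to another gene's end had SP1 at a higher share. Of 47 ZNF genes with another protein-coding gene's end within 1000 bases, 17 had a summit, or 36.2% (23.97 to 50.5), against 13.7% (9.67 to 19.1) of the 204 others. The same held for other genes, with 22.0% (20.8 to 23.1) and 8.98% (8.49 to 9.49). A close neighbour was rarer among ZNF genes (18.7%) than among other genes (28.4%). Weighted to the ZNF genes by such a neighbour, all other genes gave 11.4%, against 17.9% of the ZNF genes. Of the 45 best summits, 14 were also within 1000 bases of another gene's end (31.1%, 19.5 to 45.7, against 38.6%, 36.6 to 40.7), and such a summit cannot be assigned to 1 gene. These pairs included ZNF106 with SNAP23, a membrane fusion gene, ZNF18 with the kinase gene MAP2K4, ZNF408 with ARHGAP1, ZNF207 with C17orf75, ZNF821 with IST1 and ZNF276 with VPS9D1. ZNF48 shared its summit with MYL11 and SEPTIN1.

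Promoter letters were examined over the 205 windows of ZNF genes and 13711 windows of other genes, both strands, with overlapping matches each counted. No gene of chromosome 8 had a window, so its 18 ZNF genes, 4 of them with an SP1 summit, are left out. GGGCGG was present in 60.5% (53.7 to 66.9) of ZNF windows and 58.0% of the others, and in 58.1% of all windows. ZNF windows with 3 or more boxes had an SP1 summit in 9 of 28 cases (32.1%, 17.9 to 50.7), those with 2 in 5 of 41 (12.2%, 5.32 to 25.5), those with 1 in 13 of 55 (23.6%, 14.4 to 36.3) and those with none in 12 of 81 (14.8%, 8.68 to 24.1). No steady order is visible, and the overlapping intervals are too wide to show a rise or its absence. With at least 1 box the share was 27 of 124 (21.8%, 15.4 to 29.8), higher than without one, again with overlapping intervals. In other genes the share rose from 6.61% without a box to 15.4%, 18.1% and 20.6% with 1, 2 and 3 or more. The ZNF genes without a box lay above the other genes without one (6.61%, 5.99 to 7.28). Of the 39 ZNF genes with a window and a summit, 8 had the best summit inside the window, 4 with a box and 4 without. For the rest the letters under the best summit were not searched. Weighted to the boxes of the ZNF genes, other genes gave 13.2%, against 19.02% of the 205.

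**Figure D5:**
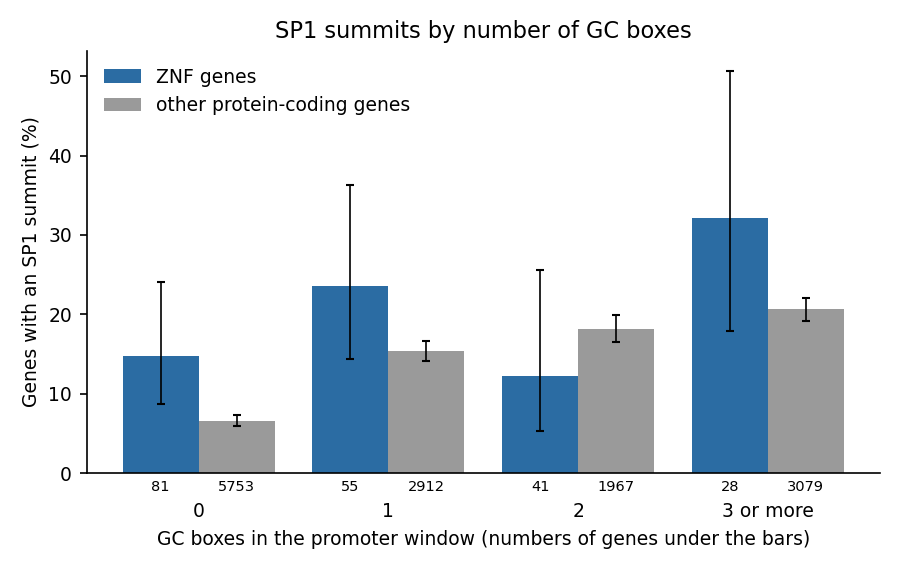
Share of genes with an SP1 summit at an end (y axis, percent) by the number of GC boxes in the promoter window (x axis) for 205 ZNF genes and 13711 other protein-coding genes; bars are shares, lines are 95% Wilson intervals and numbers of genes stand under the bars. The share rises with boxes in other genes, from 6.61% to 20.6%, while the ZNF genes show no steady order and wide intervals.

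Other promoter letters were searched in the same windows. CCGGAAG, the ETS core, was in 70 of 205 ZNF windows, or 34.1% (28.0 to 40.9), against 13.6% (13.0 to 14.2) of other genes and 13.9% of all windows. It was found in 41.0% (27.1 to 56.6) of ZNF windows with an SP1 summit and 32.5% (25.9 to 40.0) of those without, so it was common on both sides. TATAAA was in 3.90% (1.99 to 7.51) of ZNF windows and 10.2% (9.67 to 10.7) of others. CCAAT was in 43.9% (37.3 to 50.7) against 35.6% (34.8 to 36.4), where all windows had TATAAA in 10.1% and CCAAT in 35.7%. 3 longer motifs were searched too. The NRF1 motif was in 12.7% of ZNF windows (8.80 to 17.9) against 8.40%, the ZNF143 motif in 4 windows (1.95%, 0.761 to 4.91) against 0.335%, and the YY1 motif in 2 (0.976%, 0.268 to 3.49) against 1.31%. A match is a run of letters and does not show a bound factor. The intervals treat windows as independent, which windows of genes that arose by local duplication may not be.

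H3K27ac was called at few genes, ZNF or other, from a list of 3201 summits. A summit lay at an end of 4 of the 251, or 1.59% (0.621 to 4.03), against a background of 0.901% (157 of 17424, interval 0.771 to 1.05), a difference of 0.693 points (-0.291 to 3.13). ZNF487 on chromosome 10 had 5.41 at 280 bases from its 3′ end and ZNF18 on chromosome 17 had 5.10 at 259 bases from its 3′ end. ZNF654 on chromosome 3 had 4.55, 652 bases away from the end of lower coordinate. ZNF664 on chromosome 12 had 3.83, 441 bases inside its start, at a summit shared with CCDC92 and the readthrough gene ZNF664-RFLNA. All 4 lay between the lowest and the upper quartile of other genes with a summit (3.09 and 5.99), which had a median of 4.84. Just outside the limit were ZNF169 (1318 bases), ZNF629 (1728) and ZNF721 (2245).

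The SP1 and H3K27ac summits of ZNF genes did not lie together, and few did at other genes. Both were found at ZNF487 and ZNF18, at opposite ends of the genes, 86663 and 42973 bases apart. None of the 44 distinct SP1 summits of the 45 genes had an H3K27ac summit within 500 bases, which allows up to 6.82% by 3 counts of 44 and up to 8.03% by the Wilson interval. At other genes this held for 19 of 1790 SP1 summits (1.06%, 0.681 to 1.65), so a share of that size was not detectable with 44 summits. Neither mark was called at an end of 204 ZNF genes (81.3%), against 15092 of the 17424 other genes (86.6%), and both were called at 32 of the other genes. The nearest SP1 summit lay 1000 to 2500 bases away at 5 of the genes without one, 2500 to 10000 at 20, 10000 to 100000 at 72 and farther at 109.

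Some SP1 summits lay inside the genes, away from the ends. Such summits numbered 23 in 21 ZNF genes (8.37%, 5.54 to 12.5, against 6.98% of other genes, 6.62 to 7.37), and 17 of these genes had none at an end. By span length, the share was 5.94% against 2.06% of other genes up to 20000 bases and 9.30% against 5.29% from there to 50000. It was 8.82% against 8.57% up to 100000 bases and 13.3% against 19.6% above. These classes rest on 6, 8, 3 and 4 ZNF genes with such a summit. Of the 18 summits in genes with a listed start, 6 were within 1000 bases of one. They include the highest, 13.5 in ZNF217, an oncogene amplified in breast cancer, at 380 bases from its listed start. The others were in ZNF436 (9.54), ZNF768 (9.48), ZNF18 (8.29), ZNF646 (7.14, the summit of ZNF668) and ZNF688 (5.50). With every listed start counted in place of the ends, 42 of 205 ZNF genes had SP1 at a start (20.5%, 15.5 to 26.5), against 13.8% (13.2 to 14.4) of other genes.

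H3K27ac summits inside the span were found in 12 ZNF genes (4.78%, 2.76 to 8.17, against 5.79% of other genes, 5.45 to 6.14), none of which had one at an end. The highest was 7.55 in ZNF622, followed by 6.68 in ZNF133 and 6.35 in ZNF148, a factor that binds GC-rich DNA. None of the 10 in genes with a listed start was within 1000 bases of one. The authors' ranked regions overlapped the span of 13 ZNF genes for H3K27ac (5.18%, against 5.21%) and 14 for SP1 (5.58%, against 4.63%). The best SP1 rank, 15 of 2356, was at ZNF385A, a p53 cofactor gene on chromosome 12, whose end summit scored 4.52, and the best H3K27ac rank, 446 of 2710, was at ZNF385D.

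Among related zinc-finger genes on the same autosomes, where the background was 12.7%, an SP1 summit was found at 9 of 37 ZBTB genes, which pair fingers with a BTB domain (24.3%, 13.4 to 40.1), with ZBTB3 at 48.6, ZBTB22 at 21.7 and ZBTB4 at 21.6. It was found at 2 of 13 ZFP genes (15.4%), 1 of 7 ZKSCAN genes, ZKSCAN5 at 42.5, and 1 of 14 ZSCAN genes. The intervals overlap that of the ZNF genes. H3K27ac was at none of them, which at a background of 0.901% is too few genes to read.

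SP1 was also called at genes of the machinery that KRAB zinc-finger proteins recruit. Of 22 such genes, taken from all autosomes and X, 10 had an SP1 summit, or 45.5% (26.9 to 65.3), against 13.8% of all protein-coding genes of those chromosomes. The list was chosen with earlier results of these data known, and the background was not matched for close neighbouring ends. TRIM28, the corepressor that KRAB domains bind, had 16.02 at 71 bases from an end, the shortest distance of the 10. The others ran from 138 bases at ATF7IP to 897 at CHD4, with HDAC1 at 522, CBX1 at 625 and MORC3 at 703. The heterochromatin protein genes CBX5, CBX1 and CBX3 had 20.4, 16.01 and 8.20. DAXX, a chaperone of histone H3.3, had 21.7 at a summit 613 bases from its end and 3 bases from that of ZBTB22. ATF7IP, a partner of SETDB1, had 16.1, and the methyltransferase gene SETDB1 itself had 6.38. CHD4, MORC3 and HDAC1 had 8.94, 8.24 and 5.48, and the remaining 12 had none. H3K27ac was at none of the 22, where the background was 0.851%.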

How the data were processed

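Called summits and ranked regions were read for SP1 and for H3K27ac, 1 library each; the IgG library was not analysed here. From its range, the score of a deposited summit is a −log10 value, of p or of q, and the authors' labels do not say which. The deposited region lists give the authors' rank, treated as a score, without its signal. The build is hg38 per the submitters' processing notes, which also list cutadapt 2.5 and deepTools 3.4.1; aligner, peak caller and control: not given in the sources used here. Depth is unknown.

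Genes, strands and promoter windows came from RefSeq tables of GRCh38.p14, matched by gene ID, and 205 of 251 ZNF genes had a window. No gene of chromosome 8 had a strand or a window, so that chromosome is missing wherever these were needed. A gene counted when a summit lay within 1000 bases of an end of its span. Shares have 95% Wilson intervals, differences of shares Newcombe intervals and medians exact binomial ones. Differences of medians carry the interval of the ZNF median alone, with the other median treated as fixed. Calculations used Python 3.11.15, pandas 2.3.3 and scipy 1.17.1 and were tested on simulated data. Protein classes (fingers, KRAB domain) were planned and not run. ZNF genes named are the 20 highest for SP1, all with H3K27ac, the lowest 3, those around the distance limit and the longest rows; others were named after their values were seen. The gene set and lists were chosen with earlier results of these data known.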

Additional observations from a re-analysis of the deposited data

How the results depend on the processing

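No paired analysis was possible because each antibody has a single library. Of 56 alternative values for 6 results over 11 settings, 48 kept their direction and their place inside the 95% interval of the reported value, 3 moved out of it and 5 changed sign. Without chromosome 16, against genes within 100000 bases and at any listed start were added after seeing the data. The SP1 share was 11.2% with summits above the median score, and its difference from other genes fell to 1.74 points. The H3K27ac share was 0.488% both at the gene start alone and at any listed start, with 1 of 205 genes, and its difference from other genes then became -0.198 and -0.336 points. The SP1 difference became -0.945 points against genes close by. The median SP1 score of ZNF genes minus that of other genes, -0.846, became 0.0573 for genes with no other end within 1000 bases and 0.0693 without chromosome 16, and -1.72 (-3.29 to -0.0977) against genes close by. That interval leaves out the error of the median of the genes close by. With fewer summits or ends a share falls by construction; otherwise the cause was not tested. As no file gives a depth, no limit of detection could be computed. The classes of ZNF proteins by fingers and KRAB domain were not run.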
